A study of Homo sapiens with 4 samples.

Results

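ELF3, EHF, KLF4, KLF5, CDX1, CDX2, HNF4A, FOXA1, FOXA2 and GATA6 encode transcription factors of intestinal and other epithelia. Their transcripts were read on Agilent 2-colour arrays of the colon cancer cell line HCT116. All probes that carry the name of 1 of these 10 genes were taken, and there were 16 of them among 41000 probes with 30982 gene names. ELF3 and KLF4 were called lower in the Cy5 channel in both clones, and the ratios of ELF3, KLF4 and KLF5 differed between the clones. FOXA1 and GATA6 were called higher in Cy5 in both clones. CDX1, EHF and most probes for HNF4A and FOXA2 were near background.

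The RNA came from clones #3-1 and #4-7, each a stable HCT116 clone that expresses a shRNA against N-BLR, a long non-coding RNA. Every array also received RNA from an HCT116 clone with empty vector, and each shRNA clone had 2 arrays that the labels call biological replicates. The labels do not say whether both clones carry the same shRNA. With 2 shRNA clones and 1 empty vector clone, an effect of the shRNA and a trait of a clone cannot be told apart. The array holds 0 probes named for N-BLR, so the knockdown was not read here. All 4 arrays lay on 1 slide. Of the probe spots on an array, 68.5% to 71.8% were well above background in Cy3 and 71.5% to 72.6% in Cy5.

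In the labels of all 4 arrays the shRNA clone is Cy5 and the empty vector is Cy3, with the dyes never turned round. The methods do not say which dye went with which RNA. Values below are log2 ratios of Cy5 over Cy3, so a positive value means a higher level in the channel labelled as the clone. This direction opposes the one that the study describes for E-cadherin (CDH1) and vimentin (VIM). The study found CDH1 higher and VIM lower in both clones on its arrays, and gives the same direction by qRT-PCR and immunofluorescence. It also shows a western blot of E-cadherin in these clones. CDH1, an adhesion protein of epithelia, had log2 ratios of -2.60 in clone #3-1 and -1.34 in clone #4-7. VIM, a mesenchymal filament protein, had 4.45 and 2.39. The single channels also go against the labels. A control shared by all arrays should be alike on all of them, and the channel that was alike was Cy5. Over the 9266 probes whose ratio differed between the clones, the median difference between the clones' arrays was 0.057 on the log2 scale in Cy5 and 0.513 in Cy3, and 9099 of these probes differed more in Cy3. Directions are therefore given by channel, as "higher in Cy5" or "lower in Cy5". If the dyes were exchanged, every sign below would turn, while the sizes and the tests would stay. The labels thus stand against both the single channels and the study's direction for CDH1 and VIM. Which channel holds the RNA of the clone was not tested.

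These factors act in layers. CDX1 and CDX2 are homeobox factors that set intestinal identity, HNF4A is a nuclear receptor of enterocytes and hepatocytes, and GATA6 and the forkhead factors FOXA1 and FOXA2 open chromatin in tissues derived from endoderm. KLF4 and KLF5 bind related GC-rich sites, and in the gut KLF5 marks dividing crypt cells while KLF4 marks differentiated cells nearer the lumen. ELF3 and EHF are ETS factors of epithelial cells that act late in differentiation.

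KLF4 and KLF5 are related factors whose ratios differed between the clones, and one probe for each reads from the part of the transcript that encodes the zinc fingers. The design sequences of both probes are shown for that reason. Capitals mark the codons of the zinc-binding cysteines (TGC) and of the first zinc-binding histidine (CAC), which lie 12 codons apart in both genes. Apart from this spacing the letters differ. Which finger each probe covers was not examined, so the letters do not compare the same part of the genes.
KLF4 A_23_P32233: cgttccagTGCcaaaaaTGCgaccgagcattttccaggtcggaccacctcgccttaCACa
KLF5 A_24_P210406: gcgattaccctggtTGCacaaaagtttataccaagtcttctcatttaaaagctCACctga
On build hg17, the build of the array design, the KLF4 probe lies at chr9:107327604-107327663 on the minus strand. The KLF5 probe lies at chr13:72534862-72536010 on the plus strand, an interval longer than the 60 bases of the probe, as for a probe that crosses an intron.

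ELF3 and KLF4 were the only member genes with a probe lower in Cy5 past the threshold in both clones, and their promoters are printed because both transcripts lay on that side. The sequences are those of RefSeq on GRCh38.p14 and hold 250 bases before the start site and 50 after it. A RefSeq promoter was matched for 8 of the 10 genes, all but CDX1 and FOXA2. Capitals mark TATAAA and GGGCGG, the latter a GC box that SP and KLF factors bind, on either strand.
ELF3 (chr1:202010337-202010636, plus strand): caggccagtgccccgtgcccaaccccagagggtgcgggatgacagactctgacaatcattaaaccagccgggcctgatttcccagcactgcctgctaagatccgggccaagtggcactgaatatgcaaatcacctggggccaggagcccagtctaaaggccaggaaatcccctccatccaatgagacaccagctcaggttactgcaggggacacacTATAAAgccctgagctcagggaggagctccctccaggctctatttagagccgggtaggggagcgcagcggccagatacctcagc
KLF4 (chr9:107489720-107490019, minus strand): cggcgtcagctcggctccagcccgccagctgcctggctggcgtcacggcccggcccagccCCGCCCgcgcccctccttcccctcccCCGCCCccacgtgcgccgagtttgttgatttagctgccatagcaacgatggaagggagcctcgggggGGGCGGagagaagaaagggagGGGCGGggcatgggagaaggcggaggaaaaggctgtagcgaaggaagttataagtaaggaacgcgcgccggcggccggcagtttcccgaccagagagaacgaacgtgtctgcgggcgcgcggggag
The promoters are of different kinds. That of ELF3 held 1 TATAAA, 0 GC boxes and 7 CG dinucleotides, while that of KLF4 held 0 TATAAA, 4 GC boxes and 33 CG dinucleotides. Among 35116 promoters of this length, TATAAA occurred in 11.5% and GGGCGG in 45.0%. Both windows were also searched, on both strands, for strings that the factors of the list are known to bind. KLF factors bind CCACCC, which 34.3% of all promoters held. For ETS factors the string was CCGGAA, held by 17.2% of them. The forkhead string TGTTTAC was in 3.42% of promoters. AGATAA, which GATA factors bind, was in 10.3%. A string of CDX factors, CATAAA, was in 10.6%. Neither window held any of these 5 strings, which says only that these letters are not in these windows.

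Probes were called at limma's unadjusted p below 0.001, the threshold of the study, and p adjusted by Benjamini-Hochberg over all 41000 probes is given beside each value. In clone #3-1, 5 of the 16 probes were higher in Cy5 and 3 were lower, against 32.7% of all probes called. In clone #4-7, 4 were higher and 4 lower, against 31.1% of all probes. Both shares of the members lie above the background but the list is small, and the members were not tested as a set. Over both clones, 6 probes were called with the same sign, where the share of all probes was 15.4%, and 1 was called with opposite signs, where it was 3.59%. Between the clones, 5 probes differed, against 22.6% of all probes. The median log2 ratio of the 16 probes was -0.02 in clone #3-1 and 0.05 in clone #4-7, beside 0.01 in each clone over all probes, so the list as a whole did not lean to one side. Of the 16 probes, 9 were well above background in both channels on all 4 arrays.

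**Figure D1:**
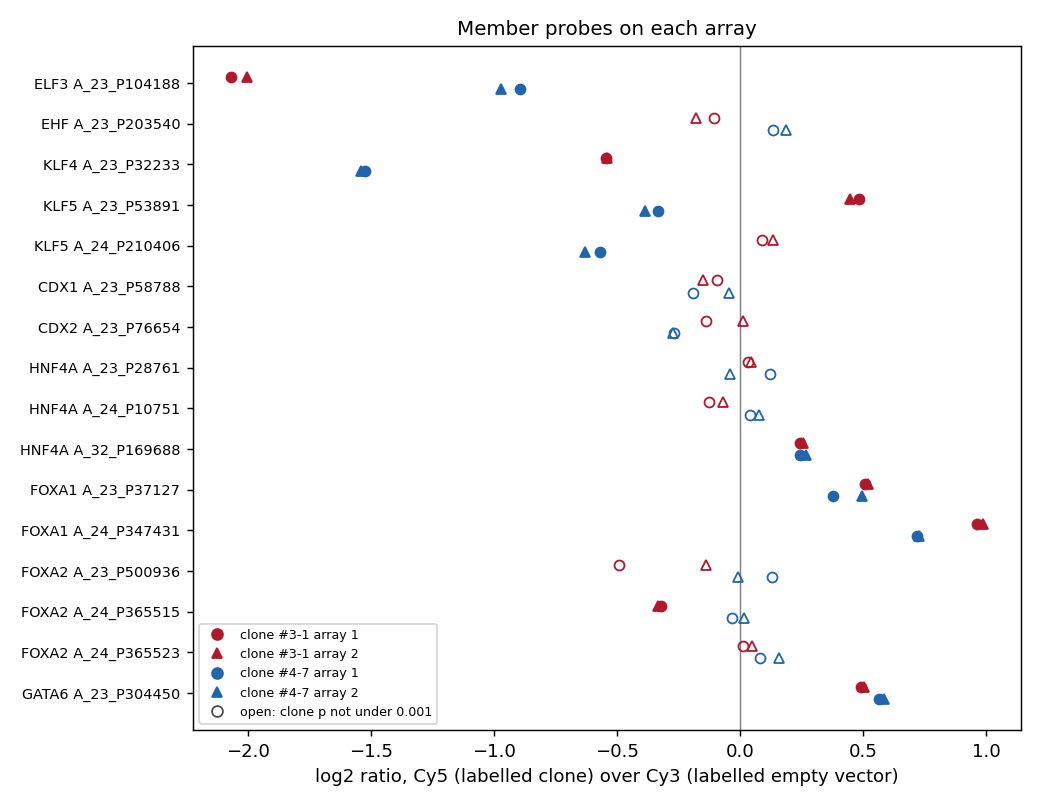
Log2 ratio of Cy5 over Cy3 of each of the 16 member probes (vertical axis) on each of the 4 arrays (horizontal axis). Colours stand for the clone, shapes for its arrays, and open symbols for a clone in which the probe was not called. ELF3 lies at -2.07 and -2.003 on the arrays of clone #3-1 and at -0.89 and -0.97 on those of clone #4-7, KLF4 shows the reverse order, and the KLF5 probes lie on opposite sides of 0 in the clones.

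ELF3, the ETS factor that epithelia express as they differentiate, had the lowest ratio of the list in clone #3-1. Its log2 ratio was -2.07 and -2.003 on the arrays of clone #3-1 and -0.89 and -0.97 on those of clone #4-7. All 4 arrays were lower in Cy5. The mean was -2.04 ± 0.05 (SD, n = 2) in clone #3-1, a level 4.10-fold lower in Cy5 (adjusted p = 9.03e-06, limma). In clone #4-7 it was -0.93 ± 0.06 (SD, n = 2), or 1.91-fold lower (adjusted p = 4.28e-05, limma). The difference between the clones was -1.10 (SE 0.05, adjusted p = 1.22e-04, limma). By rank, ELF3 was the 58th lowest of 41000 probes in clone #3-1 and the 587th lowest in clone #4-7. Its normalized Cy5 level was 11.27, 11.27, 11.16 and 11.10 on the log2 scale on the 4 arrays, in the order clone #3-1 array 1, array 2, clone #4-7 array 1, array 2. The Cy3 level was 13.34, 13.27, 12.05 and 12.08 on the same arrays. The gap between the clones thus lay in Cy3, which spanned 1.28, and not in Cy5, which spanned 0.17. EHF, the other epithelial ETS factor, was not well above background in either channel on any array. Its log2 ratios of -0.10, -0.18, 0.13 and 0.19 are therefore differences between dim spots, and none of its tests passed the threshold.

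KLF4, a Krüppel-like factor of differentiated epithelium, was also lower in Cy5 on every array, but the larger ratio was in the other clone. The arrays of clone #3-1 both gave -0.54, and those of clone #4-7 gave -1.52 and -1.54. These groups lie far apart beside the spread within a clone. The mean ratio was 1.46-fold lower in Cy5 in clone #3-1 (log2 -0.54, SE 0.03, adjusted p = 7.47e-05, limma) and 2.89-fold lower in clone #4-7 (log2 -1.53, SE 0.03, adjusted p = 1.08e-05, limma). Between the clones the ratio differed by 0.99 (SE 0.04, adjusted p = 8.67e-05, limma). The Cy5 levels of 10.36, 10.34, 10.31 and 10.26 were alike on all arrays. In Cy3 the levels were 10.91 and 10.87 on the arrays of clone #3-1 and 11.84 and 11.80 on those of clone #4-7. ELF3 and KLF4 are thus on the same side in both clones but rank the clones in opposite order.

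KLF5, the Krüppel-like factor of dividing crypt cells, was read by 2 probes that gave like differences between the clones and less alike ratios within each. The probe A_23_P53891 (chr13:72548980-72549039, plus strand, hg17) gave 0.48 and 0.45 in clone #3-1 and -0.33 and -0.39 in clone #4-7. It was thus higher in Cy5 in one clone and lower in the other. The means were 0.47 (SE 0.03, adjusted p = 1.63e-04, limma) and -0.36 (SE 0.03, adjusted p = 4.20e-04, limma), and this was the member probe called with opposite signs. The zinc finger probe A_24_P210406 gave 0.09 and 0.13 in clone #3-1, which was not called (mean 0.11, adjusted p = 0.0322, limma). Its -0.57 and -0.63 in clone #4-7 were called (mean -0.60, adjusted p = 9.63e-05, limma). Between the clones the probes differed by 0.83 (SE 0.04, adjusted p = 1.78e-04, limma) and 0.71 (SE 0.05, adjusted p = 2.88e-04, limma). The level in Cy5 spanned 0.07 over the 4 arrays for the first probe and 0.27 for the zinc finger probe, and that in Cy3 spanned 0.86 and 0.64. Without clone #4-7 replicate 2, the call of A_23_P53891 in clone #4-7 was lost, with a log2 ratio of -0.33, and it was also lost with processed signals (-0.36), the deposited table (-0.36) and plain background subtraction (-0.37). With the deposited table, A_24_P210406 lost its calls in clone #4-7 (-0.60) and between the clones (0.75). In clone #4-7, KLF4 and both KLF5 probes were lower in Cy5, whereas in clone #3-1 KLF4 was lower and KLF5 was not.

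**Figure D2:**
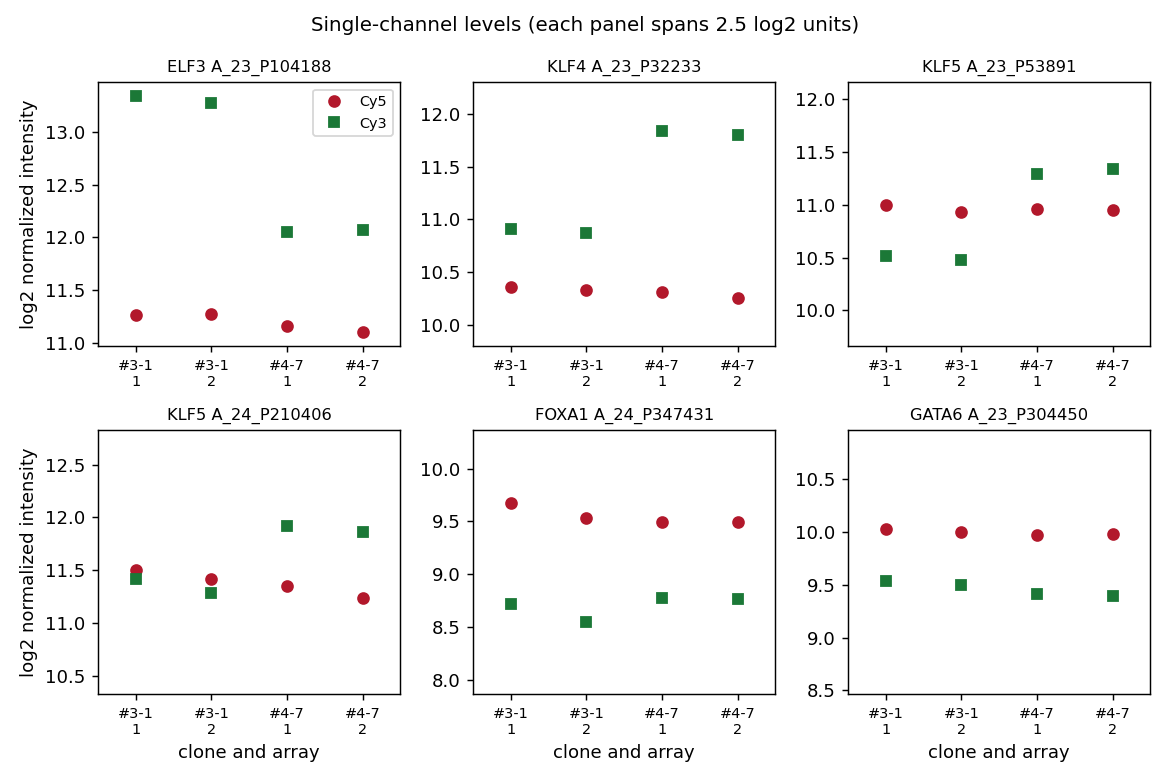
Normalized log2 intensity (vertical axes) of Cy5 and Cy3 on the 4 arrays (horizontal axes) for 6 member probes, with every panel spanning the same height. Cy5 stays nearly level over the arrays, while Cy3 steps between the clones for ELF3 (from 13.34 and 13.27 to 12.05 and 12.08), KLF4 and KLF5, and for FOXA1 and GATA6 Cy5 lies above Cy3 on all arrays.

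FOXA1, a forkhead factor that opens chromatin in endoderm, was higher in Cy5 in both clones by both of its probes. The probe A_24_P347431 (chr14:37129205-37129264, minus strand, hg17) gave 0.96 and 0.99 in clone #3-1 and 0.72 and 0.73 in clone #4-7. The ratios correspond to 1.97-fold (adjusted p = 1.91e-05, limma) and 1.65-fold (adjusted p = 4.44e-05, limma) higher levels in Cy5. These were the highest of the list in both clones, at ranks 369 and 676 of 41000. The difference of 0.25 between the clones (SE 0.04, 95% interval 0.15 to 0.35) did not pass the threshold (adjusted p = 0.0053, limma). It passed under 3 of 17 alternatives in processing. The probe A_23_P37127 (chr14:37129297-37129356, minus strand) lies beside it and is printed 10 times on each array. Averaged over its spots, it gave 0.51 and 0.52 in clone #3-1 and 0.38 and 0.50 in clone #4-7, all higher in Cy5. On clone #4-7 array 2 the mean is that of 8 spots, after removal of outliers. Within an array the SD between its spots was 0.0715 to 0.105, which is a measure of spot error. No spot was below 0, the lowest being 0.239. The probe is dim, and its ratio depended on the background correction. From the processed signals of the scanner software it was 1.05 in clone #3-1 and 0.83 in clone #4-7, beside 1.24 and 0.87 for A_24_P347431. Its call in clone #4-7 was lost with the deposited table (0.83) and plain background subtraction (0.73).

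GATA6, a zinc finger factor of endoderm and of crypt cells, gave 0.49 and 0.50 in clone #3-1 and 0.56 and 0.58 in clone #4-7. Its level was 1.41-fold (adjusted p = 9.82e-05, limma) and 1.49-fold (adjusted p = 7.52e-05, limma) higher in Cy5. The difference of -0.08 between the clones (95% interval -0.18 to 0.02) was not called (adjusted p = 0.183, limma). Over the 4 arrays its level lay between 9.97 and 10.03 in Cy5 and between 9.40 and 9.54 in Cy3, so both channels were nearly level. FOXA1 and GATA6 were thus called higher in Cy5 in both clones, with no call between the clones.

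FOXA2, the close relative of FOXA1, did not share its ratios. Its brightest probe, A_24_P365523, was well above background on all arrays and was called in neither clone, with values of 0.01, 0.05, 0.08 and 0.16. The other FOXA2 probes were not well above background in Cy5 on any array, and in Cy3 only on the arrays of clone #3-1. Of these, A_24_P365515 was called lower in Cy5 in clone #3-1 (-0.32 and -0.33, adjusted p = 4.90e-04, limma) and differed between the clones by -0.32 (adjusted p = 0.00289, limma). Both calls were lost without either array of clone #3-1, at log2 ratios of -0.32 and -0.33 in that clone and differences of -0.31 and -0.33. The difference was also lost without either array of clone #4-7, at -0.34 and -0.29, and with processed signals, where it widened to -2.32. A_23_P500936 had -0.49 and -0.14 in clone #3-1 and was not called. The FOXA2 probes thus do not give a common picture.

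HNF4A, the nuclear receptor of enterocytes, was read by 3 probes. A_23_P28761 and A_24_P10751 were not well above background in either channel on any array and were not called, with ratios between -0.13 and 0.12. A_32_P169688 gave 0.25, 0.26, 0.25 and 0.27, called higher in Cy5 in clone #3-1 (adjusted p = 0.00101, limma) and clone #4-7 (adjusted p = 0.001, limma). Its Cy3 signal was well above background on 2 of the 4 arrays. Leaving out an array ended its call in clone #3-1 for each of the 4 arrays, at 0.25 to 0.26, and in clone #4-7 for either array of that clone, at 0.25 and 0.27. With processed signals the ratios were 0.82 and 1.02 and were not called. The homeobox factor CDX2 was well above background on all arrays, with ratios of -0.14 and 0.01 in clone #3-1 and -0.27 on both arrays of clone #4-7. The ratio was not called in clone #3-1 (adjusted p = 0.272, limma) or in clone #4-7 (adjusted p = 0.00408, limma). Without either array of clone #3-1 the same -0.27 in clone #4-7 was called. CDX1 was not well above background in either channel on any array, with ratios from -0.19 to -0.04.

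The members were then set beside 65 other transcription factors of intestine and epithelium, each read by its brightest probe. In clone #3-1, 18 were higher in Cy5 and 12 lower, and in clone #4-7, 17 were higher and 17 lower. Over 30982 genes read in this way, the shares in clone #3-1 were 16.3% and 16.5%, and those in clone #4-7 were 15.8% and 15.3%. Both clones called 16 of the 65 with the same sign, where the share over all genes was 15.6%. Leaving out 1 array lowered this count to 6 without clone #3-1 replicate 1, 8 without clone #3-1 replicate 2, and 10 without either array of clone #4-7. The median log2 ratio was -0.01 in clone #3-1 and 0.00 in clone #4-7, beside 0.01 and 0.00 over all genes. Among the largest mean ratios were those of ELF2, SP5, KLF6, GRHL2, HES1, OVOL1 and GRHL3. ELF2, an ETS factor found in many tissues, was higher in Cy5, at 1.96 and 1.52 in the clones (adjusted p = 6.87e-06 and 1.13e-05, limma). SP5, an SP factor downstream of Wnt signals, was at 1.82 and 1.20. GRHL2, OVOL1 and GRHL3 maintain epithelial identity, and these 3 were lower in Cy5 in both clones. GRHL2 had -1.97 in clone #3-1 and -0.31 in clone #4-7, with Cy5 not well above background in either. OVOL1 had -1.06 and -0.35, and GRHL3 had -0.67 and -0.40. In clone #4-7 the call of GRHL2 was lost under 12 of 18 alternatives, the omission of any 1 array among them, at -0.36 to -0.25. The call of OVOL1 there was lost under 4, the omission of either array of that clone among them, at -0.35.

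KLF6, a ubiquitous relative of KLF4, gave -0.70 in clone #3-1 and -1.77 in clone #4-7, close to the -0.54 and -1.53 of KLF4. Of the 8 other KLF genes in the list, 2 were higher and 1 lower in clone #3-1, beside 16.3% and 16.5% of all genes. In clone #4-7, 0 were higher and 4 lower, beside 15.8% and 15.3%. The clones differed for 5 of the 8 (background over all genes 22.9%), and 4 of these 5 had the higher ratio in clone #3-1, as had KLF4 and KLF5. HES1, the repressor that Notch signals induce, showed the widest gap of the list. It was at 1.66 and 1.54 in clone #3-1 and -3.45 and -3.47 in clone #4-7, and its difference of 5.06 between the clones (adjusted p = 9.70e-06, limma) stands beside -1.10 for ELF3, the widest among the members.

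**Figure D3:**
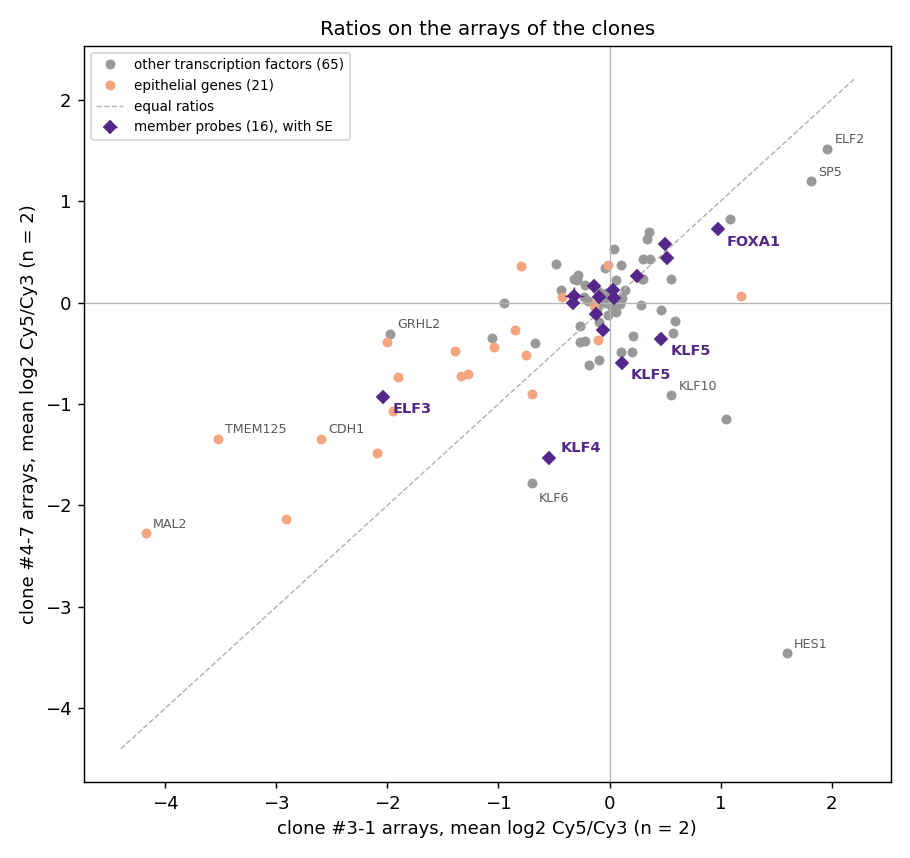
Mean log2 ratio of Cy5 over Cy3 on the arrays of clone #3-1 (horizontal axis) and of clone #4-7 (vertical axis) for the 16 member probes with their standard errors, 65 other transcription factors and 21 epithelial genes. ELF3 (-2.04, -0.93) lies among the epithelial genes above the line of equal ratios, KLF4 (-0.54, -1.53) and KLF6 (-0.70, -1.77) lie below it, and HES1 (1.60, -3.46) lies apart.

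Genes of the differentiated intestine, many of them targets of CDX2, HNF4A or KLF4, were in part dim. Of 42 such genes, 19 were well above background in both channels on all arrays. The brush border marker VIL1 and the colon epithelial marker CDH17 were well above it on none. In clone #3-1, 2 were higher in Cy5 and 6 lower, and in clone #4-7, 3 were higher and 4 lower, each below the share over all genes. Their median log2 ratio was 0.02 and 0.01. FCGBP, a mucus protein of goblet cells, had -1.05 in clone #3-1 and -1.77 in clone #4-7, the order of KLF4. FGFBP1, a binding protein for fibroblast growth factors, had -1.43 and -0.81, the order of ELF3. TGFBR2, a receptor for TGF-beta, had -0.53 and -1.10, with a call in both clones. The brush border peptidase DPP4 was lower in Cy5 in clone #3-1 (-1.68) and was not called in clone #4-7 (-0.08), and the protease inhibitor SERPINA1 was lower in clone #4-7 (-0.97) and was not called in clone #3-1 (0.11). CA2, a carbonic anhydrase, was at 0.04, not called, and 0.70, called. TMPRSS2, an epithelial serine protease, was higher in Cy5 in both, at 0.30 and 0.38, but these calls were lost under 7 and 8 of 18 alternatives. Without either array of clone #3-1 its call there was lost, at 0.28 and 0.32. In clone #4-7 it was lost without either array of clone #3-1 (0.38) and without clone #4-7 replicate 2 (0.30). The lactase gene LCT was called in clone #3-1 (at least 1.249-fold higher in Cy5) and not in clone #4-7, and the call was lost under 6 of 18 alternatives, with either array of clone #3-1 left out among them (0.33).

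Epithelial genes that are not transcription factors were mostly lower in Cy5, as was ELF3. Of 21 such genes, 17 were lower in Cy5 in clone #3-1 and 16 in clone #4-7, and 15 were lower in both. Over all genes the share lower in Cy5 was 16.5% in clone #3-1 and 15.3% in clone #4-7. Of 30982 genes, 2450 were called lower in both clones. The 21 genes were chosen with earlier results of these data known, so their counts are not an independent test. Their median log2 ratio was -1.27 in clone #3-1 and -0.51 in clone #4-7. The membrane proteins MAL2 (-4.18 and -2.28), TMEM125 (-3.53 and -1.34) and TMC4 (-2.91 and -2.13) led the list together with CDH1. The keratins KRT8 and KRT18, EPCAM and CDH1, all markers of epithelium, were well above background on all arrays in both channels. VIL1 and CDH17, which were also taken as markers of colon epithelium, were well above it on none. Of 9 factors of epithelial-mesenchymal transition, 3 were well above background in both channels on all arrays. Only 2 of the 9 were called in each clone. Over all 30982 genes, 10153 were called in clone #3-1 and 9623 in clone #4-7. SNAI1 was called in both clones (-0.32 and -0.95). ZEB1 (TCF8 in the files) was higher in Cy5 in clone #3-1 (0.57, with Cy3 not well above background) and not called in clone #4-7 (-0.07). TWIST1 was called in clone #4-7 (-0.34). The study reports ZEB1 as lower in both clones, as mRNA and as protein. The calls of SNAI1 and ZEB1 in clone #3-1 and of TWIST1 in clone #4-7 were lost under 5, 6 and 7 of 18 alternatives, the omission of either array of that clone among them, at -0.34 to -0.30, 0.54 to 0.60 and -0.35 to -0.34. Among 11 markers of fibroblasts, leukocytes and endothelium, 3 were called in both clones, among them COL1A1 (-0.59 and -1.13) and VWF (-0.35 and -0.44). The summed level of the 11 markers was 2046 to 2206 in Cy5 on all arrays, and in Cy3 it was 2093 to 2229 on the arrays of clone #3-1 and 2716 to 2720 on those of clone #4-7. COL1A2, LUM, PTPRC, PECAM1 and CDH5 were not well above background in any channel. The part of these markers in the results was not tested.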

How the data were processed

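RNA of the shRNA clones #3-1 and #4-7 was hybridised with RNA of an empty vector clone on 4 arrays, 2 per clone. The authors deposited, per the file headers, the unnormalized mean intensity of every spot in Cy5 and Cy3 and the median intensity of the area around it, read by Feature Extraction. The same deposited files hold processed intensities, the log10 ratio of Cy5 over Cy3, and other values such as flags of 0 or 1 for outliers, saturation and background. A deposited table repeats the log10 ratios: its values lay within 0.005 of those in the scanner files, with a median of 0 on each array, and its direction is that of red over green. The software version is 9.5.3.1 in the headers and 8.5.1.1 in the submitters' processing notes.

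Intensities were processed in R 4.3.3 with limma 3.58.1: normexp background correction (offset 50) on all spots, removal of controls and of 87 to 125 outlier spots per array, loess within arrays, quantile normalization between arrays, log2 scale, and averaging of the spots of a probe. Both clones entered 1 linear model over all 4 arrays, and limma's moderated test gave each ratio against 0 and the difference between the clones. limma, normalization within and quantile normalization between arrays, averaging of spots, a linear model and the threshold of 0.001 follow the study's methods. The background method, loess and the removal of outlier spots were chosen here. The control counts as 1 sample whose own spread is not in the test, and nothing says that the arrays of a clone came from separate cultures, so p-values measure the spread between these arrays. The small number of arrays limits the precision, and a missing dye swap leaves dye bias in every ratio. Where neither array of a clone measured a probe in a channel, "at least" marks a bound: the dim side was set to its own level or to the dimmest level flagged as above background, whichever was higher (Aquantile scale).

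Probes were named from the gene names of the files, and a listed gene was represented by its brightest probe. The members and the other lists were chosen with earlier results of these data known. Named genes are all members, up to 8 genes per list with the largest mean ratio over the 4 arrays among those called in a clone, CDH1 and VIM, and the 3 probes nearest to the highest and the lowest member. Some genes that this rule covers are not reported here. Other genes named were chosen after their values were seen. The single-channel levels were also described after the data were seen. Replicate numbers did not pair the arrays of the clones (correlation of deviations -0.013).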

Additional observations from a re-analysis of the deposited data

Results flagged for a closer look

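Several members had ratios that differed between the clones by limma's test of the difference itself (p below 0.001). The log2 difference, clone #3-1 minus clone #4-7, was -1.10 for ELF3, 0.99 for KLF4, 0.83 for KLF5 A_23_P53891, 0.71 for KLF5 A_24_P210406 and -0.32 for FOXA2 A_24_P365515. The FOXA2 value rests on spots near background. Among the other transcription factors it was 5.06 for HES1, 1.08 for KLF6, 0.62 for SP5, 0.44 for ELF2, -0.28 for GRHL3, -0.71 for OVOL1 and -1.67 for GRHL2. The GRHL3 difference lost its call under 13 of 17 alternatives, the omission of any 1 array among them (-0.30 to -0.26), and that of SP5 under 6. Among intestinal genes it was 1.08 for SERPINA1, 0.71 for FCGBP, 0.57 for TGFBR2, -0.61 for FGFBP1, -0.66 for CA2 and -1.59 for DPP4. The epithelial genes MAL2 (-1.90), TMEM125 (-2.19), CDH1 (-1.255) and TMC4 (-0.78) had lower ratios in clone #3-1, while VIM (2.06), SNAI1 (0.63), ZEB1 (0.64) and COL1A1 (0.54) had higher ones. The ZEB1 difference lost its call under 7 of 17 alternatives, the omission of either array of clone #3-1 among them (0.61 and 0.67). For ELF3, KLF4 and KLF5 the difference lay in the Cy3 level, the channel labelled as the control.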

How the results depend on the processing

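Of 830 values of member probes over 18 alternatives, 758 kept their side of the threshold (values called under neither setting could change sign), 52 lost a call, 20 gained one, and 0 called values changed sign. Some alternatives repeat each other, so counts over them hold some outcomes more than once. Aquantile and no normalization between arrays gave the same ratios. Fitting a clone on its own arrays gave it the same result as leaving out either array of the other clone. ELF3 ranged from -2.14 to -2.003 in clone #3-1 and from -1.03 to -0.89 in clone #4-7, and KLF4 in clone #4-7 from -1.60 to -1.52. With a 2-fold minimum added, 1 member probe remained called in clone #3-1 (of 8), 1 in clone #4-7 (of 8) and 1 between the clones (of 5), 2 other transcription factors had the same call in both clones (of 16), 1 intestinal gene (of 4) and 6 epithelial and EMT genes (of 16). With adjusted p below 0.05 as the threshold, 9 member probes differed between the clones and 7 intestinal genes had the same call in both. The deposited table of ratios called 4 member probes in clone #4-7. The count of other transcription factors with a shared sign and call was 10 with processed signals, 10 with a normexp offset of 0, 7 with plain subtraction of the background, and 6 to 10 when each array was left out. Leaving out each array gave 6 to 7 member probes in clone #3-1, 6 to 9 in clone #4-7, and 4 between the clones. Probes of the whole array called in clone #3-1 numbered 870 with the 2-fold minimum and 22359 with adjusted p, beside 13395; in clone #4-7 they numbered 702 and 21347, beside 12738; and between the clones 1015 and 17394, beside 9266. With the replicate number as a block, 8, 8 and 4 member probes were called and 12 other transcription factors, 4 intestinal genes and 16 epithelial and EMT genes had the same call in both clones; the member call lost was that of FOXA2 A_24_P365515 between the clones. The causes of these shifts were not tested. Probes near background, such as those for EHF, CDX1 and HNF4A, have no ratio that can be read with confidence.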

Other observations

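Among 26917 probes well above background in both channels on all 4 arrays, those with ratios nearest to ELF3 were C9orf61 (-2.10 in clone #3-1 and -0.81 in clone #4-7), the tight junction gene CLDN7 (-1.95 and -1.07) and MBNL2, a splicing factor (-1.89 and -0.78). Their distances over the 4 arrays were 0.201, 0.224 and 0.311 on the log2 scale. Nearest to FOXA1 A_24_P347431 were BRRN1 (0.98 and 0.68), PHF17 (0.94 and 0.69) and C15orf42 (0.99 and 0.70), at distances of 0.0633, 0.0785 and 0.0795.

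Opposite calls in the clones, as for KLF5, were found for 8 of the 65 other transcription factors (1134 of all 30982 genes, each read by its brightest probe). Besides HES1, examples chosen after their values were seen are ETS2, an ETS factor downstream of growth signals (1.05 in clone #3-1 and -1.15 in clone #4-7), KLF10, a TGF-beta response gene (0.56 and -0.91), KLF2 (0.57 and -0.30) and SOX9, a factor of crypt stem cells (0.20 and -0.49). Each of these was higher in Cy5 in clone #3-1 and lower in clone #4-7, whereas ETS1 (-0.48 and 0.38) ran the other way.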
